A study of Mus musculus with 12 samples.

Results

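The Sp110 and Sp140 nuclear body gene cluster of mouse chromosome 1 was examined through the H3K36me2 peaks that fell in it. The cluster was delimited as chr1:84924855-85624974 in mm10, a stretch of 700.12 kb, and all peaks of the authors' deposited lists that overlapped it were taken: 20 of 231 peaks of the control list and 42 of 3491 peaks of the knockout list, 62 of 3722 in all. The 8 genes described are Sp110, Sp140, Gm38510, C130026I21Rik, Gm7592, Gm7609, A530032D15Rik and Gm2427. The region was chosen by its many peaks in both lists, so the peak counts below describe the choice and carry no test.

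Chromatin came from the somatosensory cortex of mice aged 2.5 months, from which 12 libraries were made in 4 groups of 3: immunoprecipitated and input chromatin of controls (Ctrl), and the same pair of conditional knockouts (cKO). The knockouts were labelled Nsd1Nex-cKO. As background, Nex drives Cre recombinase in postmitotic excitatory neurons of the forebrain, so other cells of the cortex keep an intact Nsd1. The controls were Nsd1fl/+ in 2 and Nsd1fl/fl in 1 library of each group, and whether they carried Cre was not stated in the labels. The labels of all 6 libraries of a genotype named the same single peak list, so the values below have no replicate error and differences between the genotypes could not be tested. Each peak carries the authors' fold enrichment over the background around it, and a −log10 q, where q is the p-value adjusted over the genome and 1.30 corresponds to a q of 0.05. Whether these values are means over a broad peak or belong to 1 position in it is not given in the sources used here. A q-value of a peak below is this listed value. Read depth was unknown from the lists. The knocked-out gene itself, Nsd1, held 0 peaks in both lists, which show positions only and do not check the deletion.

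Sp110 and Sp140 belong to the speckled protein family, chromatin-associated proteins of nuclear bodies that carry an amino-terminal oligomerization domain and a DNA-binding SAND domain; Sp140 also has a plant homeodomain finger and a bromodomain, modules that read histone tails. Both genes are known for their induction by interferon in immune cells and have been studied for a part in resistance of mice to intracellular bacteria. H3K36me2 is deposited by methyltransferases that include NSD1 and is known to cover gene bodies and intergenic chromatin, where it restrains Polycomb methylation.

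Promoter sequences from RefSeq (GRCm38.p6, whose chromosome coordinates mm10 shares), each with 250 bases before and 50 after an annotated start, were found for 6 of the 8 genes, in 7 windows, as Sp110 has 2 starts. Gm38510 and Gm7592 had no entry. These sequences are shown because they tell the family copies apart and because peaks described further down overlapped some of these starts. The starts of this table can lie inside the gene bodies given below: that of C130026I21Rik lies 12.3 kb inside its body, that of Sp140 13.2 kb, and the first of Sp110 6.96 kb. The first type was shared by A530032D15Rik (chr1:85109804-85110103, minus strand), C130026I21Rik (chr1:85270517-85270816, minus strand) and Sp140 (chr1:85600453-85600752, plus strand). Capitals mark the longest run identical in the 3 windows, 146 bases long.
A530032D15Rik: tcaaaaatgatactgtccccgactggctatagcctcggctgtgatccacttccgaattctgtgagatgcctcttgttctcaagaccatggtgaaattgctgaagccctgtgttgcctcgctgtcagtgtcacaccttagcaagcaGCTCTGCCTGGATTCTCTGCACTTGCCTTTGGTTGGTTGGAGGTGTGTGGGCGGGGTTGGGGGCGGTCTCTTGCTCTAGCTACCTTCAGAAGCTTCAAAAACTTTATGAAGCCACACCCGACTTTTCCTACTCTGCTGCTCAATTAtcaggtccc
C130026I21Rik: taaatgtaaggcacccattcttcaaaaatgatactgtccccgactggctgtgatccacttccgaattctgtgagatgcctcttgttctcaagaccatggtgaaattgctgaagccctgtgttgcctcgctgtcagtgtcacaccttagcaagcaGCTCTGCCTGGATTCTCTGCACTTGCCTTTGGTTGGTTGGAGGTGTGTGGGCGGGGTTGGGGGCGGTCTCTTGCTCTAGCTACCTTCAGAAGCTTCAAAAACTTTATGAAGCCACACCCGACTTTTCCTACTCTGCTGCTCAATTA
Sp140: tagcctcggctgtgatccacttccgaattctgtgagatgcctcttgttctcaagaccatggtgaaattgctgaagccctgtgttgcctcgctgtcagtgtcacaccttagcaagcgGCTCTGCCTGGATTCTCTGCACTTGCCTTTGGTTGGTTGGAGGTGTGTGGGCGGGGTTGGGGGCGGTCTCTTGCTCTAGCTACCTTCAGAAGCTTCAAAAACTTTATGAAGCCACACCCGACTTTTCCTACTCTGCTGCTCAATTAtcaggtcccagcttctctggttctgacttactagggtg
The windows of A530032D15Rik and Sp140 aligned over 271 positions with 270 identical and 1 mismatch. Those of A530032D15Rik and C130026I21Rik aligned over 291 positions with 279 identical, 0 mismatches and 12 gap positions. Among all 32851 promoter windows of the RefSeq table the 146-base run occurred in these 3 alone.

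The second type was shared by Gm7609 (chr1:85199361-85199660, plus strand) and Sp100 (chr1:85649738-85650037, plus strand), the founding member of the family, which lies 4.91 kb beyond the end of Sp140 and outside the region. Capitals mark the run of 202 bases identical in both.
Gm7609: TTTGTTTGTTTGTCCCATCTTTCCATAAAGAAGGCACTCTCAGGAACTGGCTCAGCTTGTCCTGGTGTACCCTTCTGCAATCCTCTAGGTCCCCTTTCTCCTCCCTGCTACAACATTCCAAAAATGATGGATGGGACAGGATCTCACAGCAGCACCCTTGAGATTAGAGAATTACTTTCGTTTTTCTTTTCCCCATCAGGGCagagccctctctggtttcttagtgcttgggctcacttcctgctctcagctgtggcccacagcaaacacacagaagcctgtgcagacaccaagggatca
Sp100: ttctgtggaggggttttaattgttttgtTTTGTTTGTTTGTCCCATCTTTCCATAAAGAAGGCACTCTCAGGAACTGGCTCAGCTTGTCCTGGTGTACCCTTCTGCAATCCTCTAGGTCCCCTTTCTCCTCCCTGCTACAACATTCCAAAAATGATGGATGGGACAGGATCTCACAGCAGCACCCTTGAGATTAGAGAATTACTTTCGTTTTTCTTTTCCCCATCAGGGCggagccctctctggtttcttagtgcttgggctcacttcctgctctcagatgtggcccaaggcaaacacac
These windows aligned over 272 positions with 268 identical and 4 mismatches. The windows of Gm2427 and of the 2 starts of Sp110 aligned with no other window of the family over more than 64 positions. Reads from stretches this similar cannot always be assigned to 1 copy, and the treatment of such reads by the authors is not given in the sources used here, so every count by gene below is uncertain between copies.

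Several short motifs were searched in the windows on both strands, as a description of the letters alone. The interferon-stimulated response element (GAAA, any 2 bases, GAAA) was found in 0 of the 7 windows of the cluster, against 3.44% of all windows, and the STAT element (TTC, any 3 bases, GAA) in 0, against 8.30%. The TATA box (TATAAA) was found in 0, against 13.6%. The GC box (GGGCGG) was found in 4 windows, with 2 copies each in A530032D15Rik, C130026I21Rik and Sp140 and 1 at the second start of Sp110, against 35.7% of all windows. The first 2 motifs can overlap, since both hold the letters GAA. Only exact matches to these patterns were counted, so an element in a variant form would be missed. With 7 windows, some of them near copies of each other, neither 0 nor 4 can be read as a difference from these shares. The first-type windows held 6 to 7 CpG dinucleotides, where the median of all windows was 7, and that of Gm7609 held 1.

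**Figure D1:**
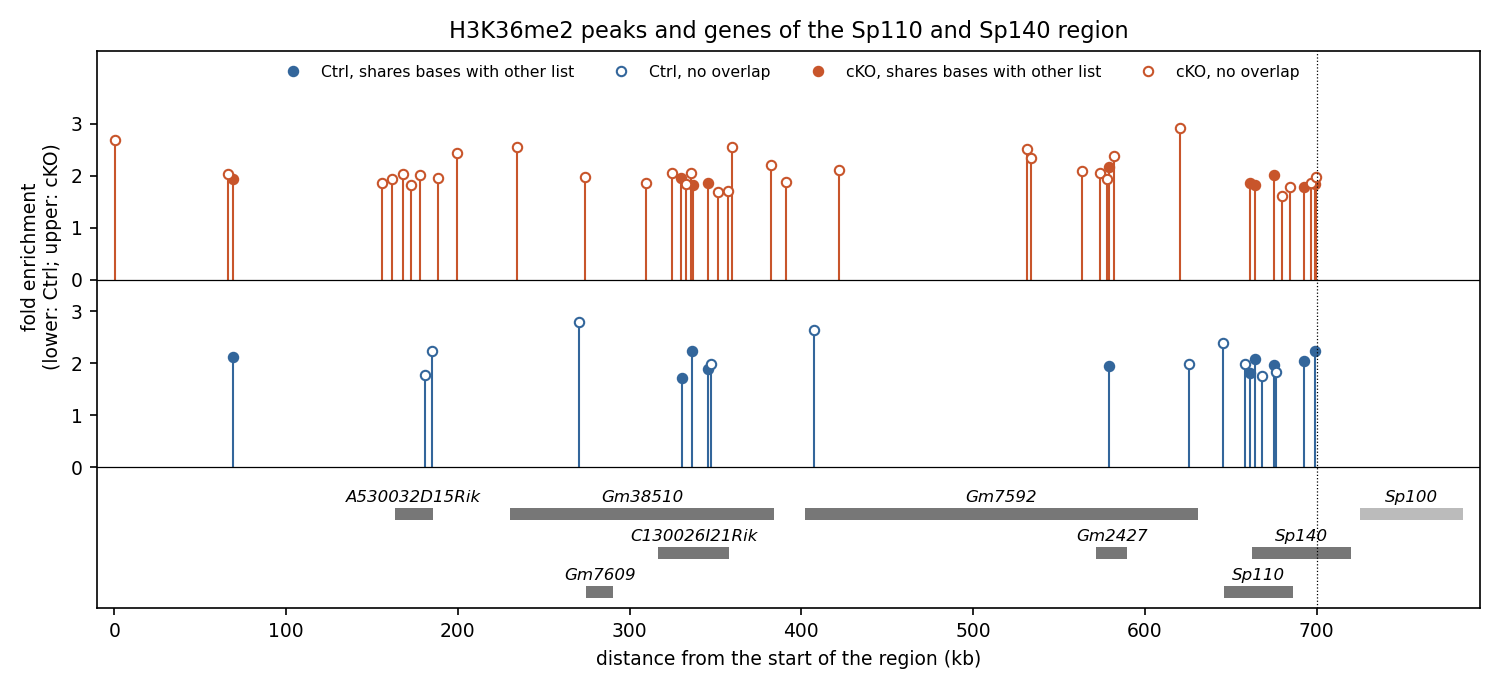
Peaks and genes of the region, with distance from its start in kb on the horizontal axis and fold enrichment of each peak as the height of its line, knockout list above and control list below. Filled points share at least 1 bp with a peak of the other list, grey bars are gene bodies, and the dotted line is the end of the region. Peaks of both lists crowd over C130026I21Rik and over Sp110 and Sp140, and none lies over Sp100.

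Peaks of both lists were denser in the cluster than around it. The window of equal length to its left held 1 control and 3 cKO peaks, and that to its right 0 and 3. On the rest of chromosome 1 there were 9 control and 214 cKO peaks, so the region held 20 of the 29 control peaks and 42 of the 256 cKO peaks of the chromosome. The outermost cKO peaks set its limits. The last control peak before it lay 65.4 kb away in Fbxo36 (84859212 to 84859453, fold 3.06), and the last cKO peak 48.8 kb away in the same gene (84875629 to 84876076, fold 2.59). After it, the next cKO peak came after 104 kb in A630001G21Rik (85729343 to 85729494, fold 3.997) and the next control peak after 2630 kb in Mroh2a (88255045 to 88255286, fold 1.99). The cKO list exceeded the control list 2.10-fold in number of peaks here, and 16.3-fold outside the region. In covered length the ratio here was 2.01, from 9000 bp in controls and 18073 bp in cKO. The rule favoured many peaks in both lists, so nothing is read from the higher density or the lower ratio.

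Within the cluster peaks were uneven. The middle of successive peaks lay a median of 8.92 kb apart in controls (1.22 to 172 kb) and 6.14 kb in cKO (0.961 to 110 kb). The longest stretch empty in both lists ran for 109 kb inside Gm7592 (85346764 to 85456040), and the next for 86.1 kb (84994438 to 85080512), across the pseudogenes Rpl19-ps1, Gm7582, Gm53056, Gm2389 and Gm18342. The sequence of these stretches was not examined, so whether reads could be placed and peaks called there is unknown. The bodies of the 8 genes make up 65.6% of the region. They took up 18 of the 20 control peaks (90.0%) and 34 of the 42 cKO peaks (81.0%).

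**Figure D2:**
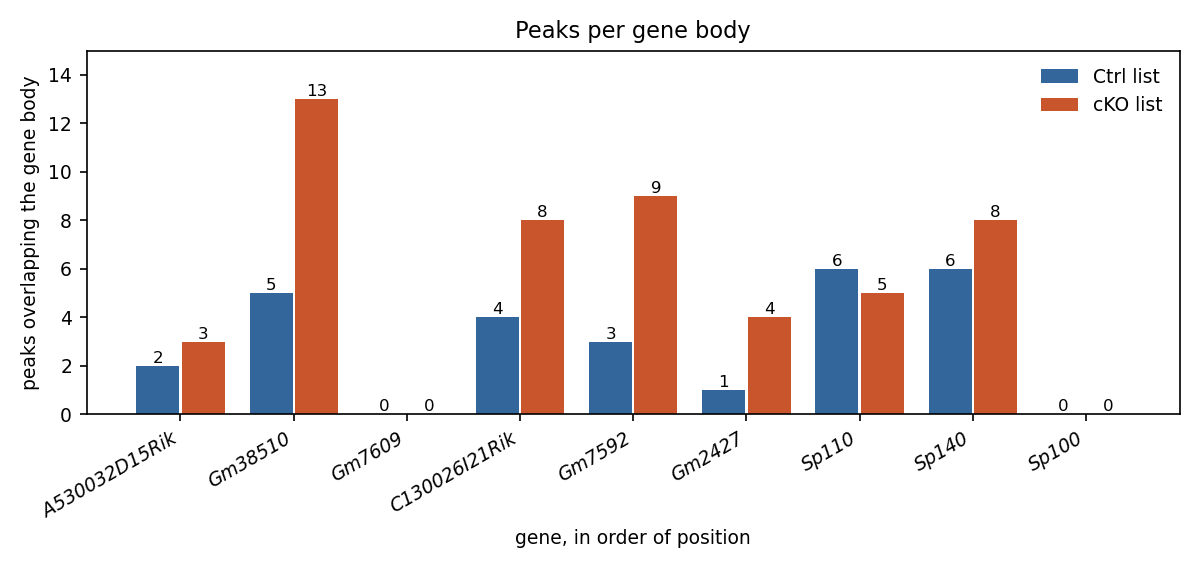
Number of peaks that overlap each gene body, in order of position, for the control list and the cKO list. A peak in overlapping genes counts for each. Gm38510, Gm7592 and C130026I21Rik had at least 4 more cKO than control peaks, Sp110 had 6 control against 5 cKO peaks, and Gm7609 and Sp100 had 0 in both.

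Of the 8 genes, 7 held peaks of both lists, against 0.142% of protein-coding genes overall. Control peaks occurred in 0.26% of those genes and cKO peaks in 5.47%. Since the rule chose the region for its peaks, nothing is read from that difference. Sp110 (85570735 to 85610850, gene ID 109032), whose product is a nuclear body component, held 6 control peaks over 2790 bp, 6.95% of its body, with folds of 1.75 to 2.09. In cKO it held 5 peaks over 2387 bp, 5.95% of its body, with folds of 1.61 to 2.01. It was the only one of the 8 genes with more control than cKO peaks.

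Sp140 (85587491 to 85645040, gene ID 434484) encodes a protein with a bromodomain. The gene held 6 control peaks over 3120 bp (5.42% of its body, folds 1.75 to 2.23) and 8 cKO peaks over 3650 bp (6.34%, folds 1.61 to 2.01). Its body shares 23360 bp with that of Sp110, and 4 peaks of each list fell in the shared part. Counted once each, the bodies of Sp110 and Sp140 together held 8 control and 9 cKO peaks, while the rest of the region held 12 and 33. The part of Sp140 that reaches beyond the region had 0 peaks in both lists. The outermost cKO peak set that limit, so nothing is read from this.

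C130026I21Rik (85241286 to 85282883, gene ID 620078), a protein-coding copy with the first-type promoter, was the gene most densely covered in cKO. Its 8 cKO peaks spanned 4504 bp, 10.8% of its body, with folds of 1.68 to 2.06. In controls 4 peaks spanned 2401 bp, 5.77% of its body, with folds of 1.72 to 2.24. They included the widest control peak of the cluster, 1275 bp (85260789 to 85262063), the third widest of the whole control list.

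Gm38510 (85155201 to 85309015, gene ID 102638555) encloses C130026I21Rik and Gm7609, so it shares their peaks. It held 5 control and 13 cKO peaks, of which 4 and 8 were those of C130026I21Rik. The control peak of its own (85195204 to 85195508) had the highest control fold of the cluster, 2.79. Among its own 5 cKO peaks was that of highest −log10 q in the cluster (85284207 to 85284679), with values of 4.08 for −log10 q and 2.55 for fold. Gm7609 (85199592 to 85215398, gene ID 665378), the copy with the Sp100-type promoter, held 0 peaks in both lists. The nearest cKO peak (85198373 to 85198836, fold 1.97) ended 756 bp before its body, so 1 cKO peak counted for it with 1000 bp added on each side.

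A530032D15Rik (85088139 to 85110297, gene ID 381287), the other copy with the first-type promoter, held 2 control peaks, with folds of 1.76 and 2.23. Its 3 cKO peaks had folds of 1.82, 2.01 and 2.03 and lay elsewhere in the gene, sharing 0 bases with those of controls. Gm7592 (85326832 to 85555681, gene ID 101055758) was the longest of the 8 genes and the most thinly covered of those with peaks, at 0.361% of its body in controls and 1.31% in cKO. It held 3 control peaks with folds of 1.94, 1.97 and 2.63, and 9 cKO peaks with folds of 1.94 to 2.92. The highest cKO fold of the cluster, 2.92, belonged to one of these (85545053 to 85545311). Gm2427 (85496430 to 85514604, gene ID 100039794) lies within Gm7592 and held 1 control peak (fold 1.94) and 4 cKO peaks (folds 1.94 to 2.38).

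Of the 13 other annotated genes in the region, 3 held a control peak and 5 a cKO peak. In controls these were the noncoding RNA gene A530040E14Rik and the pseudogenes Gm7281 and Gm2666. In cKO they were A530040E14Rik, the pseudogenes Gm35498, Gm2619 and Gm2666, and Slc16a14, a monocarboxylate transporter family gene at the left limit (fold 2.68, −log10 q 2.14). The 2 control peaks outside every gene were one of 523 bp (84993908 to 84994430, fold 2.12) and one 136 bp from the 3′ end of Sp110, a minus-strand gene (85570334 to 85570599, fold 2.39). In cKO 5 peaks lay outside every gene.

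**Figure D3:**
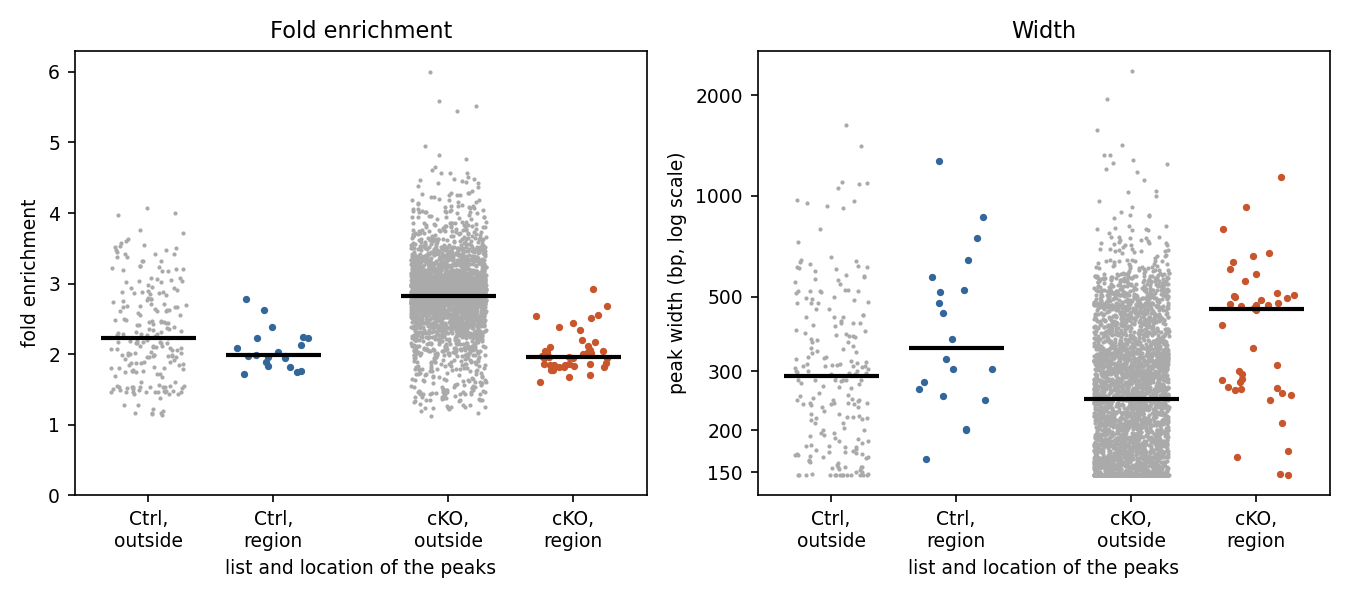
Fold enrichment and width of each peak outside and inside the region, by list, with bars at the medians; the width axis is logarithmic. In the cKO list the median fold is 1.96 inside and 2.83 outside and the median width 460 bp inside and 248 bp outside.

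In cKO, peaks of the cluster were lower and wider than those of the rest of the list, as were other dense groups of peaks. The 2 traits may not be separate if the listed fold is a mean over the peak, and this was not tested. The fold enrichment, which is the authors' value for each peak against the background of its own list, had a median of 1.96 in cKO (95% interval 1.86 to 2.04, range 1.61 to 2.92), against 2.83 in the rest of that list. Below the median of the whole cKO list, 2.82, lay 41 of the 42 peaks, the exception being the Gm7592 peak of fold 2.92. In controls the median was 1.99 (1.89 to 2.23, range 1.72 to 2.79), against 2.22 in the rest of that list, a value inside that interval, and 14 of 20 peaks lay below the median of the whole list, 2.18. The 2 lists had nearly the same median fold here, and medians further apart over the rest of the lists. Of the dense groups described below, Sfi1 had near medians too (1.48 in controls and 1.52 in cKO), as did Speer4 (2.00 and 2.13). All grouped peaks outside the cluster, from which those of Sfi1 and Speer4 were not removed, had medians of 1.78 and 2.14. These intervals treat peaks as independent and cover no replicate error.

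Widths had a median of 460 bp in cKO (95% interval 285 to 490 bp, range 147 to 1141 bp), against 248 bp in the rest of that list. In controls the median was 351 bp (266 to 523 bp, range 164 to 1275 bp), and the 290 bp of the rest of the list lay inside its interval. Other peaks with at least 3 neighbours of either list within 100 kb had median folds of 1.78 in controls and 2.14 in cKO, and median widths of 396 and 333 bp. At least 500 bp were spanned by 7 control peaks (35.0%, against 20.3% of the whole list) and by 12 cKO peaks (28.6%, against 8.22%). The widest cKO peaks lay in C130026I21Rik (1141 bp, 85254295 to 85255435), inside both Sp110 and Sp140 (925 bp, 85599344 to 85600268) and again in C130026I21Rik (798 bp, 85276125 to 85276922). After the widest control peak, that of 1275 bp, came 1 of 865 bp in Sp140 (85616830 to 85617694) and 1 of 751 bp inside both Sp110 and Sp140 (85599522 to 85600272).

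Most of these peaks had a low listed −log10 q. A q-value under 0.05 was carried by 1 of 20 control peaks (5.00%, Wilson 95% interval 0.888 to 23.6, against 9.96% of the whole list), and by 10 of 42 cKO peaks (23.8%, 13.5 to 38.5, against 18.4%). Both shares have intervals that include that of the whole list. The control peak was that of 164 bp shared by Sp110 and Sp140 (85588939 to 85589102), with a −log10 q of 1.50. A −log10 q of at least 2 was reached by 0 control and 4 cKO peaks, shares of 0% and 9.52% against 8.66% and 10.7% of the whole lists. The 4 lay in Gm38510 (4.08), in C130026I21Rik (2.48, 85260281 to 85260755), in Gm7592 (2.27, 85458417 to 85458913) and in Slc16a14 (2.14). A −log10 q of 5 was reached by 0 peaks here, against 4.76% of the control and 2.92% of the cKO list, shares too small for 0 of 20 or 0 of 42 to be read as fewer. Over grouped peaks outside the cluster a value of 5 was reached by 10 of 95 control and 44 of 246 cKO peaks. In Sfi1 and near Speer4 it was reached by 0 peaks of either list. These differences were not tested. The −log10 q was listed at 0 for 8 control peaks (40.0%, against 33.3%) and 2 cKO peaks (4.76%, against 12.7%).

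Peaks shared between the genotypes lay in several of the family genes. Of the control peaks 10 of 20 shared at least 1 bp with a cKO peak (50%, 29.9 to 70.1), against 42.4% of the whole control list. Of the cKO peaks 10 of 42 were shared (23.8%, 13.5 to 38.5), against 2.81% of the whole cKO list. The rule asked for many peaks in both lists, so these shares are descriptions. The 10 pairs shared 3820 bp in all, between 28 and 747 bp each. Of the 10, 3 lay in C130026I21Rik, 1 in Gm2427, 1 in Sp110 alone, 2 in the part common to Sp110 and Sp140, 2 in Sp140 alone and 1 outside every gene.

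The largest shared stretch, 747 bp, joined the control peak of 751 bp and the cKO peak of 925 bp inside both Sp110 and Sp140. Its fold was 1.96 in controls and 2.01 in cKO, and its −log10 q 0.961 and 1.85. Close agreement in position was also seen in Sp140 (85623460 to 85623976 in controls), where the starts differed by 26 bp and the ends by 13 bp, with folds of 2.23 and 1.84. In Sp110 a control peak (85585748 to 85586227, fold 1.82) and a cKO peak (fold 1.85) began 24 bp apart and ended at the same base. Outside genes, the pair at 84993908 to 84994430 shared 491 bp, with folds of 2.12 and 1.95. In C130026I21Rik the pair over the promoter window shared 579 bp, with folds of 1.89 and 1.86. These 5 pairs covered at least 50% of each other, and the other 5 did not.

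Of those others, the 1275-bp control peak in C130026I21Rik (fold 2.24) contained a cKO peak of 607 bp (fold 1.81), and a control peak of 202 bp there (fold 1.72) lay inside the cKO peak of 1141 bp (fold 1.96). The remaining pairs shared 59 bp in Gm2427 (folds 1.94 and 2.17), 28 bp in the common part of Sp110 and Sp140 (2.09 and 1.82) and 160 bp in Sp140 (2.03 and 1.78). Over the 10 pairs the fold was higher in controls in 6 and in cKO in 4, with cKO to control ratios of 0.811 to 1.14 and a median of 0.952. Over all 99 pairs of the lists the ratio had a median of 1.06 and was above 1 in 67. Each list was scored against its own background, and no test of these ratios was possible.

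Peaks in promoter windows were rare in the series, and most of the few control ones fell in the cluster. Of 32851 promoter windows, 4 overlapped a control peak (0.0122%), 23 a cKO peak (0.07%) and 1 both (0.00304%). The window that overlapped both was that of C130026I21Rik, and no other promoter window of the family genes overlapped a cKO peak. The control windows were those of C130026I21Rik, A530032D15Rik and the noncoding RNA gene A530040E14Rik in the cluster, and that of Foxn1, a transcription factor gene on chromosome 11. These windows were picked out after their values were seen. The peak in the A530040E14Rik window (85105666 to 85105866, fold 1.76, −log10 q 0) ended before the annotated start at 85106093. The table used here had no windows on chromosome 18.

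**Figure D4:**
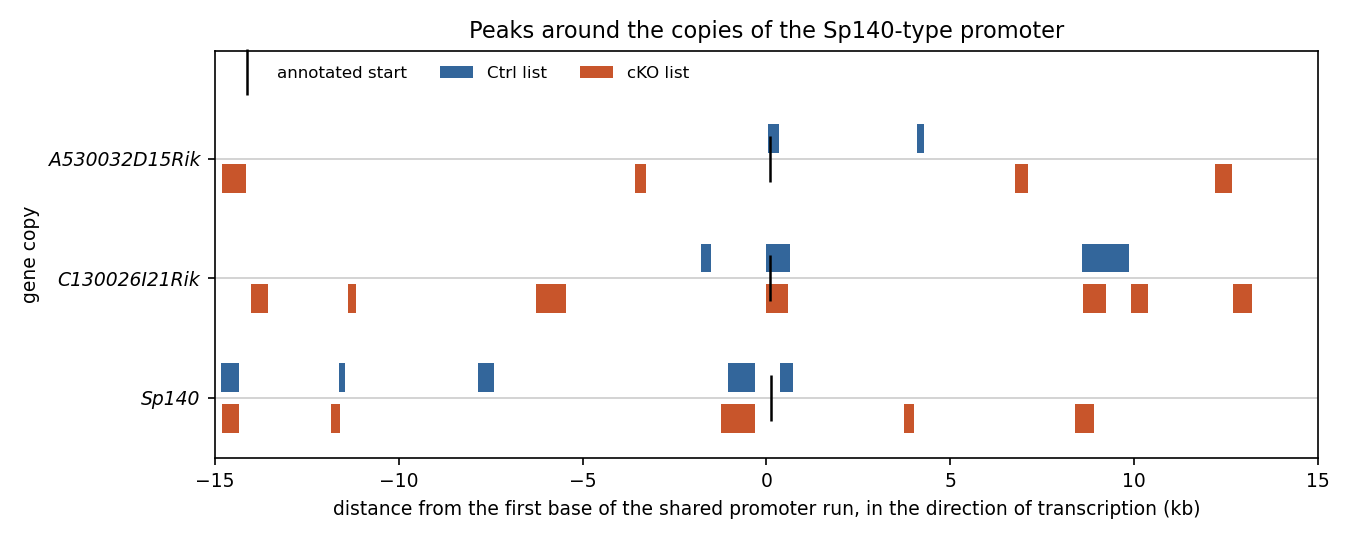
Peaks within 15 kb of the 3 copies of the first-type promoter, aligned on the first base of the 146-base run with transcription to the right; bars are peaks, and the vertical marks are the annotated starts. A control peak lies over the run in C130026I21Rik and over part of it in A530032D15Rik, and a cKO peak lies over it in C130026I21Rik. In Sp140 no peak touches the run, and control peaks lie on both sides of it.

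Aligned on the first base of the run printed in capitals above, in the direction of transcription, the control list had a peak from base −3 to base 641 in C130026I21Rik (85270021 to 85270665, fold 1.89, −log10 q 0.464). In A530032D15Rik a control peak ran from base 38 to base 342 (85109616 to 85109920, fold 2.23, −log10 q 0.699). In Sp140 a control peak ran from base 363 to base 737 (85600932 to 85601306, fold 1.83, −log10 q 0.00471) and another from base −1047 to base −297. The 146 bases of the run lay wholly inside a control peak in C130026I21Rik, with 108 bases in A530032D15Rik and with 0 bases in Sp140. In cKO they lay wholly inside a peak in C130026I21Rik, from base −11 to base 575 (85270087 to 85270673, fold 1.86, −log10 q 0.458), and 0 bases did so in the other copies.

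Further along the copies, C130026I21Rik had a control peak from base 8599 to base 9873 and a cKO peak from base 8621 to base 9227, and Sp140 had a cKO peak from base 8410 to base 8899. In A530032D15Rik the nearest peak to that position was a cKO peak from base 6754 to base 7106. Before the run, A530032D15Rik had a cKO peak from base −14813 to base −14151. Sp140 had a control peak from base −14821 and a cKO peak from base −14797, both to base −14342. The positions were picked out after the peaks were seen, and some other peaks lay at distances where the other copies had none. An example is the cKO peak of C130026I21Rik from base −6260 to base −5463. Whether sequence beyond the promoter windows is shared at the positions compared was not analysed here. The Sp100-type windows of Gm7609 and Sp100 had 0 bases in a peak of either list. In the promoter table the second start of Sp110 and the start of Sp140 point away from each other and lie 1893 bp apart, and the 747 bp shared by both lists fell between them. From the second start of Sp110 the nearest control peak lay 712 bp and the nearest cKO peak 534 bp away.

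Set beside other dense groups of peaks, the cluster had median folds near those of the Speer4 genes, a multicopy family expressed in testis. There 25 control and 24 cKO peaks, taken within 100 kb of a Speer4 gene, had median folds of 2.00 and 2.13 and median widths of 386 and 418 bp. In Sfi1, a centrosomal protein gene, 24 and 23 peaks had median folds of 1.48 and 1.52 and median widths of 451 and 432 bp. The share of cKO peaks that overlapped a control peak was 23.8% in the cluster, 37.5% near Speer4 and 65.2% in Sfi1. It was 20.3% over all grouped peaks outside the cluster, from which those of Sfi1 and Speer4 were not removed. The cluster had 2.10 times as many cKO as control peaks, those grouped peaks 2.59 times (246 against 95), and Speer4 and Sfi1 nearly equal numbers. Peaks are not replicates, and these differences were not tested.

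Elsewhere in the genome, 20 genes of nuclear body components and related chromatin readers were examined. Among them were Pml, which encodes the scaffold of nuclear bodies, Sp100, the chaperone gene Daxx and the remodeler gene Atrx. Sp100 lies just beyond the region, whose limits were set by its outermost cKO peaks, so its lack of peaks is tied to that choice. A control peak was held by 0 of the 20, against 0.26% of all protein-coding genes, and a cKO peak by 2. Over all protein-coding genes 5.47% held a cKO peak, so 2 of 20 is too few to read as more or less than that share. The 2 were Trim33 (chromosome 3, 103297555 to 103297786, fold 3.32, −log10 q 3.99) and Trim24 (chromosome 6, 37929112 to 37929354, fold 2.45, −log10 q 0.457). Both encode tripartite-motif proteins with a plant homeodomain finger and a bromodomain, as does Trim28, which held 0 peaks in both lists.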

How the data were processed

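The labels described 12 ChIP-seq libraries and the authors deposited 1 list of broad peaks per genotype. Cutadapt, Bowtie2 2.4.4, MACS2 and mm10 were named, per the submitters' processing notes; how peaks were called and filtered, whether libraries were pooled and how reads with several matches were handled is not given in the sources used here. Each deposited row gave a score, which was not used, a fold enrichment (a ratio of immunoprecipitated reads to local background), a −log10 p, also not used, and a −log10 q, all by the authors' caller. Peak names of the control list read WT, where the labels gave floxed controls. The lists named chromosomes alone, with no unplaced sequence.

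Positions were converted to 1-based coordinates and set against RefSeq gene bodies of GRCm38.p6 (49943 genes, 21887 protein-coding) and 32851 promoter windows. Peaks matched where at least 1 bp was shared. Shares carry Wilson and medians order-statistic 95% intervals, for counting error alone. Promoters were aligned with Biopython 1.88 with free end gaps. Overlap and gene assignment were tested on simulated data. Python 3.11.15, pandas 2.3.3, numpy 2.4.6, scipy 1.17.1 and matplotlib 3.10.9 were used. The naming rule took the 8 genes, other genes of the region with a peak, Sp100, and nuclear body genes with a peak. In the cluster it also took the 5 peaks of each list with the highest fold, width and −log10 q. The members, the nuclear body list and this rule were chosen with earlier results of these data known; the promoter comparison was added after the peaks were seen. No test was run, since each genotype had 1 list without replicate values.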

Additional observations from a re-analysis of the deposited data

How the results depend on the processing

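No paired analysis was possible because the peaks of a genotype came as a single list, which also kept replicates from being left out in turn. With peaks of a q-value under 0.05 alone, the region held 1 control and 10 cKO peaks, 1 and 8 of them in the 8 genes, and 0% of both were matched. At a −log10 q of at least 2 it held 0 and 4 peaks, and 0% of the 4 were matched, with no control peak to count. With peaks under 5000 bp apart joined, cKO peaks numbered 24. With an overlap of at least 50% of both peaks required, 25.0% of control and 11.9% of cKO peaks were matched. The median cKO fold was 1.86 over matched peaks and 2.37 over those with a q-value under 0.05, and the median cKO width over matched peaks was 501 bp. These follow from the peaks each setting keeps or joins.

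Joining peaks under 1000 bp apart, widening the region by 100 kb, matching within 500 bp and other gene windows kept counts over the region within 1.5 times and shares and medians within their intervals. Leaving out the bodies of Sp110 and Sp140, added after the data were seen, left 12 control and 33 cKO peaks, with matched shares (41.7% and 15.2%) and median folds (2.06 and 2.03) inside the same intervals. Of 48 alternative values for single genes, 15 moved by more than 1.5 times, 14 of them under the q-value limit and the other in Gm7609, from 0 to 1 cKO peak with 1000 bp added on each side. Counts by gene rest on how reads were shared between copies, and the unknown depth limits what the shorter control list could show.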
